A study of Homo sapiens with 8 samples.

Results

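The genes described here encode 8 transcription factors of hepatocyte identity, HNF4A, FOXA1, FOXA2, FOXA3, CEBPA, ONECUT2, PROX1 and GATA6. They were given as a list of symbols, and all 8 were found among the 11818 genes of the deposited table. The cells were HCCLM3, a human liver cancer cell line known for its high metastatic capacity. The 4 NC libraries are labelled wild type, and the labels do not say whether these cells received a control siRNA. The 4 siRNA libraries came from cells in which circPTK2, a circular transcript of the PTK2 gene, had been silenced by transient transfection of an siRNA. Poly(A)-selected mRNA was sequenced, so the circular RNA itself was not measured.

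A hepatocyte is held in its state by a small set of transcription factors that bind together at liver genes and at each other's genes. HNF4A, a nuclear receptor, is required for most of the hepatocyte programme, and the FOXA proteins are pioneer factors that open compacted chromatin ahead of other factors. C/EBPalpha, made from CEBPA, drives metabolic genes of the mature cell. ONECUT2, PROX1 and GATA6 act early, in the liver bud and in hepatoblasts, and loss of HNF4A accompanies dedifferentiation of liver tumours.

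Of the 8 genes, 3 rose in the siRNA libraries and 0 fell past the threshold, a limma adjusted p under 0.05 over all 11812 genes tested. CEBPA, with a negative change, and GATA6, with a positive one, did not reach it (limma adjusted p = 0.055 and 0.0571). CEBPA was called lower by edgeR and DESeq2, while neither called GATA6. FOXA3 rose 6.29-fold, ONECUT2 3.15-fold and HNF4A 1.80-fold, as ratios of group means of the deposited values. Over all genes tested, 42.5% passed in either direction, 21.7% as higher and 20.8% as lower, so a count of 3 among 8 lies near the background. The median log2 change of the 8 genes was 0.68, against 0.012 over all genes tested. The remaining 5 genes did not pass, and for 4 of them the NC libraries themselves disagreed, replicates 1 and 2 (the first NC pair) lying apart from replicates 3 and 4 (the second NC pair). The NC pairs also lay apart for ONECUT2, which passed, and for 70.7% of all genes tested. The median of the 8 genes was 0.80 with the first NC pair left out and 0.30 with the second left out. Since this is bulk RNA, fewer cells making a transcript and less of it per cell cannot be told apart.

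Recovered reads per library ranged from 28077305 to 43512175, and the 8 genes had between 103 and 3906 reads in a library, so none was near the floor of 3 reads. Rank correlations (Spearman, across genes) showed the 2 NC pairs. They were 0.985 and 0.987 within the pairs and 0.919 to 0.938 between them, against 0.894 to 0.933 between NC and siRNA libraries and 0.990 to 0.995 among siRNA libraries. The mitochondrial share of the values was 5.32% and 5.01% for the first NC pair, 1.96% and 2.19% for the second, and 4.39% to 5.59% for siRNA libraries. Its part in the results was not tested. PTK2, the linear host transcript, stood at 178, 227, 175 and 161 across NC replicates 1 to 4 and at 210, 217, 219 and 204 across siRNA replicates 1 to 4, which does not check the silencing of the circular form.

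The hepatocyte character of the cells was only partly visible in the markers. Of 10 hepatocyte markers, 7 had values. Their sum was 2920 to 5565 in NC and 2625 to 2695 in siRNA libraries, nearly all of it from the keratins KRT8 and KRT18. KRT8 was 1918 to 4355 in the NC and 1465 to 1540 in the siRNA libraries, and KRT18 was 824 to 1167 and 1034 to 1122. ALB, the albumin gene and the defining product of hepatocytes, reached only 7.80 to 10.6 in the NC libraries and 26.8 to 38.9 in the siRNA libraries, and SERPINA1 reached 0 to 0.21 and 4.01 to 6.76, listed at 0 in NC replicate 3. The other secreted markers were lower in the siRNA libraries, APOB at 2.61 to 15.2 in NC and 0.178 to 0.723 in siRNA, TF at 13.5 to 23.1 and 4.98 to 6.69, and FGB at 12.4 to 40.8 and 0.521 to 0.678. Of 4 biliary and progenitor markers 3 had values, with a sum of 156 to 428 in NC and 175 to 194 in siRNA libraries, and the biliary keratin KRT19 stood at 136 to 401 in NC and 150 to 168 in siRNA libraries. Of 4 gut, pancreas and lung markers 2 had values, summing to 66.7 to 175 and 20.6 to 42.5, and the gut factor gene CDX2 was at 4.52 to 6.46 and 4.85 to 6.25. No value of the 4 fibroblast markers set for this check was analysed here, but LUM, a fibroblast proteoglycan gene of a wider list, was at 20.3 to 64.0 in NC and 15.5 to 25.5 in siRNA libraries. Of the 3 endothelial markers only PECAM1 did, at 7.53 to 19.8 in NC and 3.25 to 4.93 in siRNA libraries, and of the 3 immune markers only CD68, at 52.3 to 91.0 and 76.3 to 140. The part of these markers in the results below was not tested.

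The sequences before the start sites of the 3 genes that rose are shown because the deposited values sum over all starts of a gene. Each is the 250 bases before a RefSeq start (GRCh38.p14), 5′ to 3′ on the strand of the gene, all on the plus strand. FOXA3 lies at chr19:45864076-45864325, ONECUT2 at chr18:57435124-57435373, and HNF4A has an upstream start at chr20:44355449-44355698 and a downstream start at chr20:44400989-44401238. The downstream start of HNF4A is known as the one used in adult liver and the upstream one from pancreas. The values do not separate transcripts of the 2 starts. Capitals mark matches to the motifs searched, which are listed after the sequences.
FOXA3: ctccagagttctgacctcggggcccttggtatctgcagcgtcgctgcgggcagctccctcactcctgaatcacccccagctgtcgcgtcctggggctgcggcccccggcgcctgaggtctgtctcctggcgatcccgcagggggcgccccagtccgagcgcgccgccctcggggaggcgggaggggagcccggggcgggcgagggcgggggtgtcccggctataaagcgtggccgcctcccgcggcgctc
ONECUT2: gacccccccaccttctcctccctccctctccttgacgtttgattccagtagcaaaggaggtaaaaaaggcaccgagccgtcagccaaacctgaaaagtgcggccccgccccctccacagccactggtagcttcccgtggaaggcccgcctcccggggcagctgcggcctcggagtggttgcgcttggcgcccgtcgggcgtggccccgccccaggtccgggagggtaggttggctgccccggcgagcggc
HNF4A, upstream start: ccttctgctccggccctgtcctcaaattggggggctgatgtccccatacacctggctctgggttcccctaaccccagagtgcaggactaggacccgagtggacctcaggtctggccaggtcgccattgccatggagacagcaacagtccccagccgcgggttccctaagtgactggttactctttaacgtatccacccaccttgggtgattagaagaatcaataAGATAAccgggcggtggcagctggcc
HNF4A, downstream start: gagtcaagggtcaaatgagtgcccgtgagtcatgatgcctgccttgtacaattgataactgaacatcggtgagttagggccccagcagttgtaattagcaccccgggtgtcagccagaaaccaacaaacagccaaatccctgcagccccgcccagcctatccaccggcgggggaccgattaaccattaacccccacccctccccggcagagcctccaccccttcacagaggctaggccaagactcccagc
The letters searched on both strands were TGTTTAC and TGTTTGC for forkhead factors, TTGCGCAA for C/EBP, AGATAA for GATA factors and CAAAGTCCA for HNF4. Before the upstream start of HNF4A, AGATAA begins 26 bases before the start, a motif found in 9.17% of 35116 such windows. None of the motifs searched was matched before the downstream start of HNF4A, before FOXA3 or before ONECUT2. The letters GTTAAT, part of the HNF1 motif, were not among those searched. Their reverse complement ATTAAC does occur in the window before the downstream start of HNF4A. The other windows were not searched for it and its share of all windows was not counted, so nothing is drawn from it. The FOXA3 and ONECUT2 windows are rich in G and C, at 75.2% and 68.8% against a median of 58.0% over all windows. The upstream and downstream HNF4A windows are near that median, at 58.4% and 58.0%. Genes that did not pass are rich in G and C as well, with CEBPA at 81.2%, FOXA1 at 67.2% and GATA6 at 64.4%. The tables held starts for 6 of the 8 genes, and in the other windows the only match was GCAAACA, the reverse complement of TGTTTGC, 235 bases before the start of FOXA1. That motif is in 3.23% of windows. A match is a description of letters and not of binding.

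HNF4A lies on chromosome 20 from 44355700 to 44434596 (GRCh38). Its value was 33.5, 31.2, 26.5 and 34.3 across NC replicates 1 to 4 and 47.6, 58.7, 58.3 and 61.5 across siRNA replicates 1 to 4. Every siRNA library was above every NC library, and the NC pairs did not separate. NC libraries averaged 31.4 ± 3.50 and siRNA libraries 56.5 ± 6.12 (SD, n = 4 each), which gave a log2 change of 0.83 on the log2(value + 1) scale (SE 0.12, limma adjusted p = 0.000901). The change was 0.88 with the first NC pair left out and 0.78 with the second left out, and passed in both (limma adjusted p = 0.000152 and 0.000239).

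**Figure D1:**
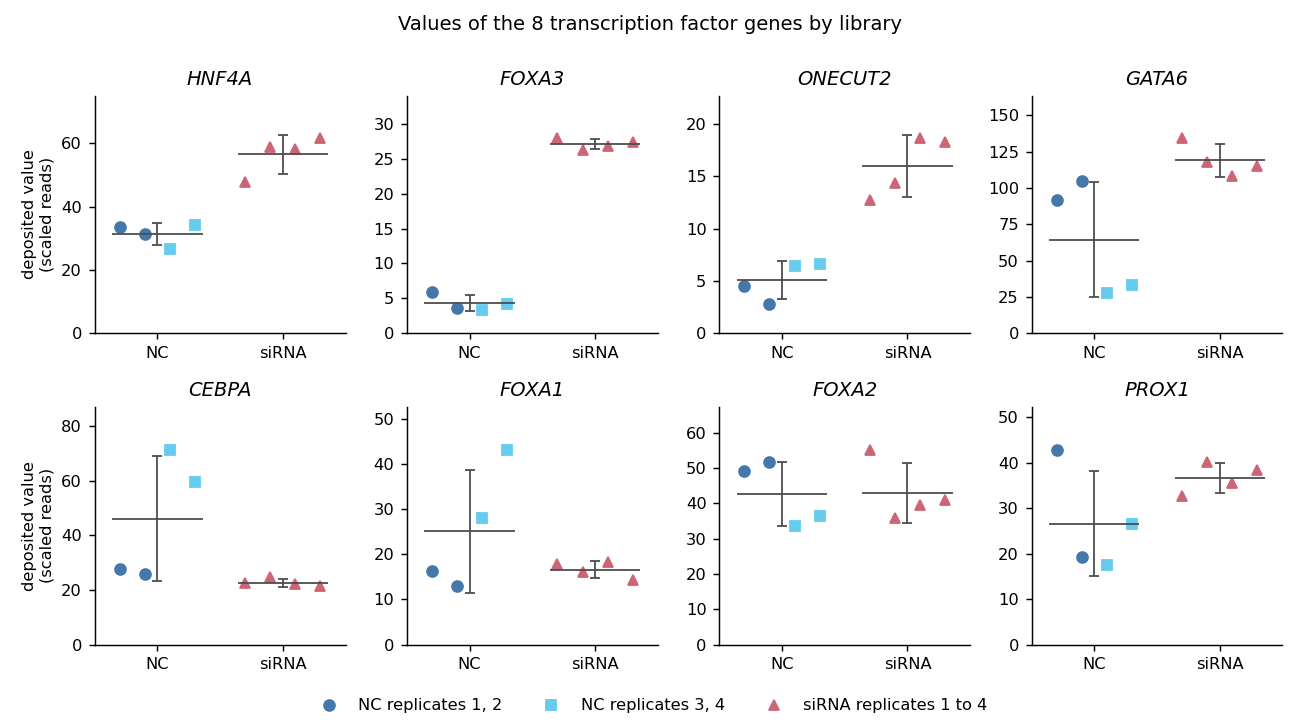
Deposited values (scaled reads, linear axis from 0) of the 8 genes in each library, with group means as lines and SD over 4 libraries as bars. All siRNA values of HNF4A, FOXA3, ONECUT2 and GATA6 lie above all NC values and those of CEBPA below them, and the NC values of ONECUT2, GATA6, CEBPA, FOXA1 and FOXA2 fall into 2 separate pairs.

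Of the 3 FOXA genes, which encode closely related forkhead proteins, FOXA3 passed as higher and the other two did not pass. FOXA3, on chromosome 19 from 45863989 to 45873797, had values of 5.97, 3.66, 3.40 and 4.21 across NC replicates 1 to 4 and of 27.9, 26.3, 26.8 and 27.4 across siRNA replicates 1 to 4. The groups did not overlap, and the siRNA libraries were nearly level with one another. The means were 4.31 ± 1.16 and 27.1 ± 0.708 (SD, n = 4 each), which gave a log2 change of 2.43 (SE 0.16, limma adjusted p = 1.85e-05). It was 2.55 with the first NC pair left out and 2.30 with the second left out (limma adjusted p = 5.89e-08 and 2.56e-06).

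FOXA2, on chromosome 20 from 22581005 to 22585455, stood at 49.2, 51.6, 33.7 and 36.3 across NC replicates 1 to 4 and at 55.2, 35.9, 39.5 and 41.0 across siRNA replicates 1 to 4. The groups overlapped, NC replicates 1 and 2 were above NC replicates 3 and 4, and siRNA replicate 1 was the highest library of all. The log2 change of 0.012 had a 95% confidence interval from -0.40 to 0.42 (limma adjusted p = 0.967). Its sign depended on the NC pair, at 0.27 with the first NC pair left out and -0.25 with the second left out, with neither past the threshold (limma adjusted p = 0.14 and 0.191).

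FOXA1, on chromosome 14 from 37589984 to 37596059, was at 16.2, 12.9, 28.1 and 43.2 across NC replicates 1 to 4 and at 17.8, 16.0, 18.3 and 14.2 across siRNA replicates 1 to 4. The siRNA values lay with those of NC replicates 1 and 2, and below those of NC replicates 3 and 4. With all libraries the log2 change was -0.43, with a 95% confidence interval from -1.18 to 0.32 (limma adjusted p = 0.328). Without the first NC pair it was -1.04 and passed (limma adjusted p = 0.000336), and without the second NC pair it was 0.18 and did not (limma adjusted p = 0.309).

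Because the 3 genes differ in length, their shares were compared per kb of annotated exon. FOXA3 made up 10.6%, 6.75%, 7.19% and 7.19% of the FOXA sum across NC replicates 1 to 4 and 33.1%, 40.2%, 38.2% and 39.3% across siRNA replicates 1 to 4. FOXA2 was the most abundant in every library, with 52.2% to 80.1% in NC and 46.3% to 55.2% in siRNA libraries. FOXA1 took 13.1% to 40.6% in NC libraries and 11.2% to 14.4% in siRNA libraries. The FOXA sum itself was 21.6 to 26.7 per kb in NC and 29.8 to 38.4 per kb in siRNA libraries. FOXA3 was thus the least abundant of the 3 in every NC library and the second in every siRNA library.

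**Figure D2:**
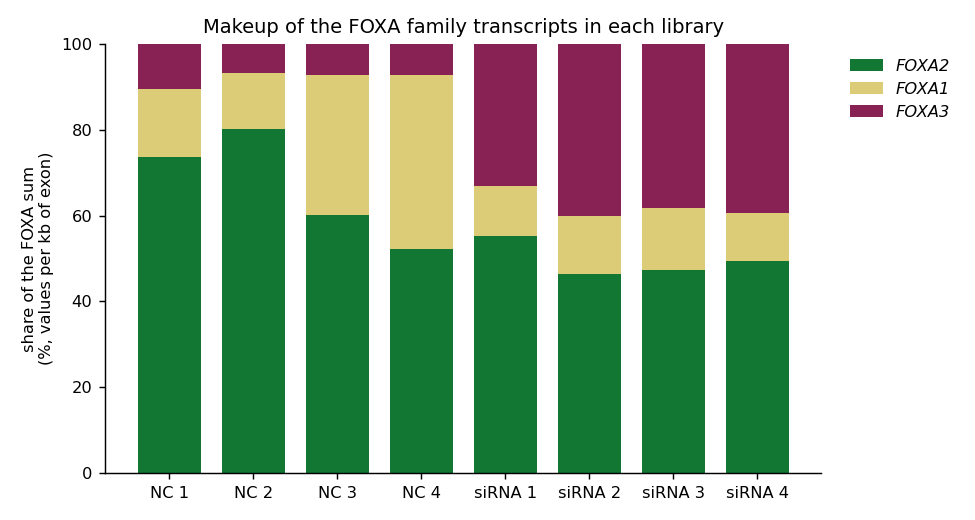
Share of FOXA2, FOXA1 and FOXA3 in the sum of the 3 genes in each library, in % of values per kb of annotated exon. FOXA3 holds 6.75% to 10.6% in the NC libraries and 33.1% to 40.2% in the siRNA libraries.

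The FOXA2 locus held a large decrease in an overlapping entry, while FOXA2 itself did not pass. AL121722.1 is an entry on the same strand of chromosome 20, from 22560553 to 22584261, that shares 70 exon bases with FOXA2. Of its 4849 exon bases, 4779 are also exon bases of LINC00261, the long noncoding RNA gene next to FOXA2, for which no value was analysed here. AL121722.1 stood at 75.0, 33.6, 71.1 and 156 across NC replicates 1 to 4 and at 4.06, 4.43, 5.06 and 4.92 across siRNA replicates 1 to 4. Every NC library was far above every siRNA library, while the values of FOXA2 overlapped. The log2 change was -3.72 (SE 0.38, limma adjusted p = 0.000153). It was -4.25 with the first NC pair left out and -3.20 with the second left out (limma adjusted p = 2.8e-06 and 2.06e-05). How the authors' counting assigned reads that fall in several overlapping entries is not given in the sources used here.

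**Figure D3:**
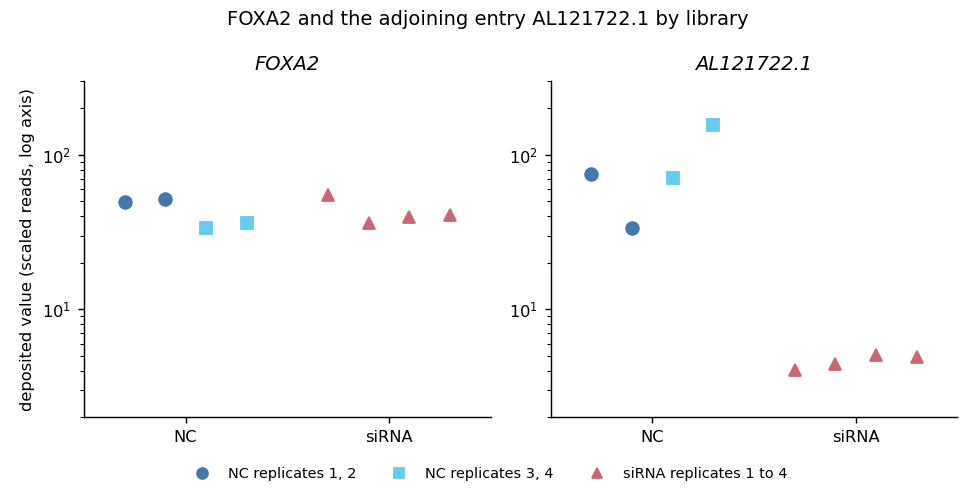
Deposited values (scaled reads, log axis) of FOXA2 and of the overlapping entry AL121722.1 in each library. FOXA2 stays between 33.7 and 55.2 in all libraries, and AL121722.1 lies at 33.6 to 156 in the NC libraries and at 4.06 to 5.06 in the siRNA libraries.

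CEBPA, on chromosome 19 from 33299934 to 33302564, had values of 27.6, 26.0, 71.4 and 59.4 across NC replicates 1 to 4 and of 22.6, 24.8, 22.1 and 21.4 across siRNA replicates 1 to 4. All siRNA values were below all NC values, but only just below NC replicates 1 and 2, and far below NC replicates 3 and 4. The means were 46.1 ± 22.8 and 22.7 ± 1.49 (SD, n = 4 each), which gave a log2 change of -0.85 (SE 0.31) and did not pass (limma adjusted p = 0.055). On the recovered reads the change was -1.02 and passed with edgeR (adjusted p = 0.0323) and with DESeq2 (adjusted p = 0.00523). It passed without the first NC pair at -1.48 (limma adjusted p = 9.53e-07), and not without the second NC pair at -0.23 (limma adjusted p = 0.0874). Leaving out NC replicate 1 or 2 alone also took it past the threshold, at -1.05 and -1.08 (limma adjusted p = 0.0277 and 0.0155). Annotated antisense genes share exon bases with CEBPA, 659 and 482 of them, and the use of strand in counting is not given in the sources used here, so its value may include reads of those genes.

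CEBPB, a C/EBP factor of the acute phase response that binds the same motif, ran the other way in the NC libraries. It stood at 48.4, 78.9, 11.6 and 10.0 across NC replicates 1 to 4 and at 26.6 to 41.5 across the siRNA replicates. The log2 ratio of CEBPA to CEBPB was therefore -0.79 and -1.57 in the first NC pair, 2.53 and 2.45 in the second NC pair, and -0.85 to -0.21 in the siRNA libraries. The 3 siRNA ratios from -0.31 to -0.21 lay between the NC pairs, and that of siRNA replicate 1 lay among NC replicates 1 and 2. The difference in group means was -1.06 (exact two-sided permutation p = 0.4, adjusted p = 0.429 over 3 ratios, n = 4 each), where the smallest p the design allows is 0.0286. The difference was -2.89 without the first NC pair and 0.77 without the second NC pair.

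ONECUT2, on chromosome 18 from 57435685 to 57491297, encodes a cut-homeobox factor related to HNF6. It stood at 4.47, 2.77, 6.44 and 6.62 across NC replicates 1 to 4 and at 12.7, 14.3, 18.6 and 18.3 across siRNA replicates 1 to 4. The groups did not overlap, although NC replicates 3 and 4 were above NC replicates 1 and 2. The means were 5.07 ± 1.82 and 16.0 ± 2.96 (SD, n = 4 each), which gave a log2 change of 1.52 (SE 0.24, limma adjusted p = 0.00144). It was 1.16 with the first NC pair left out and 1.88 with the second left out (limma adjusted p = 0.000121 and 3.72e-05). No value of ONECUT1 was analysed here.

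PROX1, on chromosome 1 from 213983181 to 214041502, is a homeobox gene of hepatoblasts and of lymphatic vessels. Its values were 42.9, 19.3, 17.6 and 26.6 across NC replicates 1 to 4 and 32.6, 40.2, 35.6 and 38.5 across siRNA replicates 1 to 4. NC replicate 1 was the highest library of all, and the other 3 NC libraries were below every siRNA library. The log2 change was 0.53 with a 95% confidence interval from -0.037 to 1.10 (limma adjusted p = 0.119). Without NC replicate 1 it was 0.78 and passed (limma adjusted p = 0.00625). It was 0.73 without the first NC pair (limma adjusted p = 0.00175) and 0.33 without the second NC pair (limma adjusted p = 0.341).

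GATA6, on chromosome 18 from 22169443 to 22202528, encodes a zinc finger factor of endoderm and the early liver bud. It had values of 91.4, 105, 28.0 and 33.3 across NC replicates 1 to 4 and of 134, 118, 108 and 115 across siRNA replicates 1 to 4. The siRNA libraries lay just above NC replicates 1 and 2 and far above NC replicates 3 and 4. The means were 64.4 ± 39.5 and 119 ± 11.2 (SD, n = 4 each), which gave a log2 change of 1.10 (SE 0.41) and did not pass (limma adjusted p = 0.0571). It was 1.92 without the first NC pair (limma adjusted p = 1.47e-07) and 0.27 without the second NC pair (limma adjusted p = 0.0417), past the threshold in both. Without NC replicate 1 alone it was 1.34 and without NC replicate 2 alone 1.40 (limma adjusted p = 0.031 and 0.0129). Antisense genes share 240 and 321 exon bases with GATA6, and another shares 171 with PROX1, so these values may include reads of those genes. With values rescaled to equal library totals it was 1.06 (limma adjusted p = 0.046).

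GATA4, the paralog that also acts in the liver bud, rose from 11.7, 12.6, 16.1 and 14.4 across NC replicates 1 to 4 to 22.2, 19.3, 22.3 and 17.2 across siRNA replicates 1 to 4 (log2 change 0.53, SE 0.14, limma adjusted p = 0.0142). The log2 ratio of GATA6 to GATA4 was 2.87 and 2.96 in the first NC pair, 0.76 and 1.15 in the second NC pair, and 2.23 to 2.67 in the siRNA libraries. Its difference in group means was 0.56 (exact two-sided permutation p = 0.429, adjusted p = 0.429, n = 4 each), with 1.54 when NC replicates 1 and 2 were left out and -0.42 when NC replicates 3 and 4 were. HNF4G, the paralog of HNF4A known from gut and kidney, was at 64.9, 58.5, 36.5 and 35.8 across NC replicates 1 to 4 and at 29.9, 59.5, 68.6 and 61.2 across siRNA replicates 1 to 4. The log2 ratio of HNF4A to HNF4G ran from -0.93 to -0.06 in NC and from -0.23 to 0.65 in siRNA libraries, a difference of 0.68 (exact two-sided permutation p = 0.0571, adjusted p = 0.171, n = 4 each).

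Across the 8 genes, NC and siRNA values were fully apart for 5, of which 4 were higher and 1 lower in the siRNA libraries. Over all genes tested 43.3% did not overlap, 22.4% higher and 20.9% lower. The NC pairs did not overlap for 5 of the 8 genes, FOXA1, FOXA2, CEBPA, ONECUT2 and GATA6, against 70.7% of all genes tested. All siRNA values lay between the NC pairs for 9.18% of all genes tested and for none of the 8. Without the first NC pair, 5 of the 8 genes passed as higher and 2 as lower, where 33.5% and 32.4% of all genes did (65.9% together). Without the second NC pair, 4 passed as higher and none as lower, against 29.7% and 28.1% of all genes (57.8% together). HNF4A, FOXA3, ONECUT2 and GATA6 were the genes that passed as higher in both. On the recovered reads, edgeR called 3 higher and 1 lower (20.4% and 22% of all genes, 42.3% together), and DESeq2 called 3 and 1 (22.7% and 25.5%, 48.2% together).

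**Figure D4:**
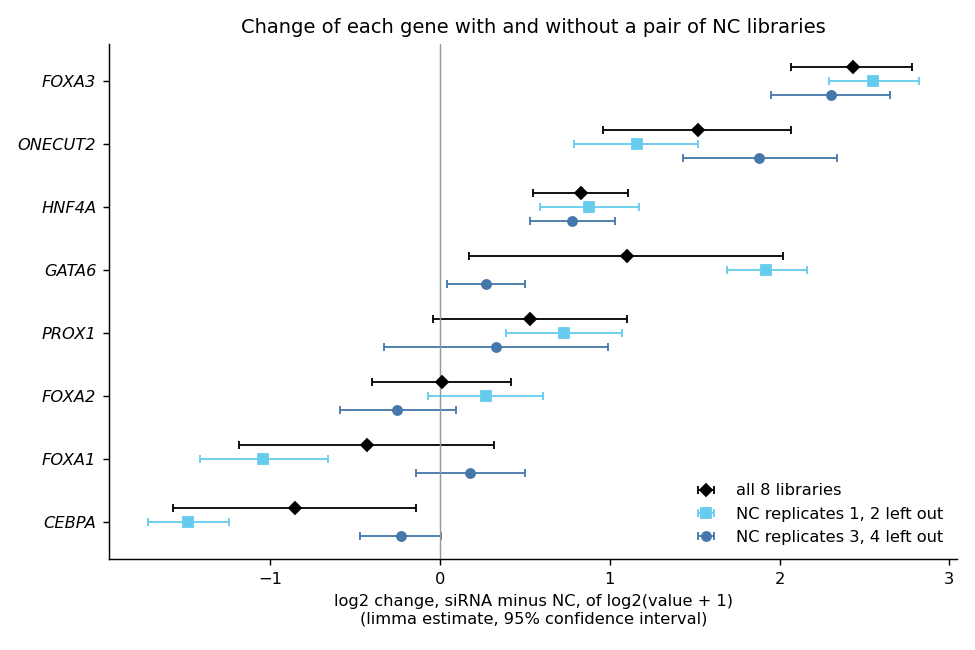
Log2 change (siRNA minus NC, log2(value + 1) scale, limma estimate with 95% confidence interval) of each gene with all 8 libraries and with either NC pair left out. The intervals of FOXA3, ONECUT2, HNF4A and GATA6 lie above 0 in all 3 fits, the estimate of GATA6 moves between 0.27 and 1.92, and that of CEBPA between -1.48 and -0.23.

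Levels of different genes were ordered by value per kb of annotated exon. In the NC libraries the order of means was CEBPA at 17.5, FOXA2 at 16.4, GATA6 at 16.3, FOXA1 at 6.31, HNF4A at 4.29, PROX1 at 2.98, FOXA3 at 1.97 and ONECUT2 at 0.313 per kb. Each pair of neighbours in that order overlapped across libraries, apart from FOXA3 and ONECUT2. In the siRNA libraries the order was GATA6 at 30.1, FOXA2 at 16.5, FOXA3 at 12.4, CEBPA at 8.64, HNF4A at 7.73, FOXA1 at 4.17, PROX1 at 4.11 and ONECUT2 at 0.983 per kb. There CEBPA overlapped HNF4A and FOXA1 overlapped PROX1, while the other neighbours were apart. Among the 11806 genes with a length, 22.5% lay below FOXA3 in the NC group and 69.9% in the siRNA group. The same shares were 76.5% and 87.6% for GATA6, 39.8% and 57.2% for HNF4A, and 3.70% and 13.1% for ONECUT2, whose 16234 annotated exon bases lower its value per kb where shorter transcripts are made.

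The other liver transcription factors changed in both directions. Of 29 listed, 23 were tested, 7 rose and 5 fell, where 21.7% and 20.8% of all genes tested did. The median log2 change of the list was 0.15. NR5A2, a nuclear receptor of bile acid synthesis, rose from between 0 and 0.418 in the NC libraries to between 6.32 and 8.23 in the siRNA libraries (log2 change 2.77, SE 0.16, limma adjusted p = 1.06e-05). NR1H4, the bile acid receptor FXR, rose from between 0 and 1.06 to between 3.18 and 3.92 (1.76, SE 0.22, limma adjusted p = 0.000398), and the fatty acid sensor PPARA from between 13.1 and 16.4 to between 29.2 and 33.2 (1.06, SE 0.11, limma adjusted p = 0.000135). In the opposite direction, TBX3, a T-box repressor of hepatoblasts, fell from between 62.5 and 89.2 in NC to between 14.9 and 19.3 in siRNA libraries (log2 change -2.15). The homeobox gene HHEX fell from between 66.7 and 91.3 to between 41.1 and 44.3 (-0.87), and the orphan receptor gene NR2F1 from between 19.4 and 44.0 to between 9.40 and 13.8 (-1.38). These 3 genes had limma adjusted p from 2.13e-05 to 0.00197. The lower call of NR2F2 (-0.47, limma adjusted p = 0.0368) was lost with some single libraries left out, at limma adjusted p up to 0.0868. It was also lost without the second NC pair (-0.27, limma adjusted p = 0.106). The sign of the list median turned with the NC pair, at 0.36 (10 higher, 7 lower) without the first and -0.15 (9 higher, 9 lower) without the second. Of all genes tested, 33.5% were called higher and 32.4% lower without the first NC pair. Without the second these shares were 29.7% and 28.1%.

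Among partners and cofactors, 20 of 24 listed genes were tested, 6 rose and 3 fell, against 21.7% and 20.8% of all genes tested. The median log2 change of the list was 0.11. Here too the median turned, at 0.47 (11 higher, 4 lower) without the first NC pair and -0.17 (7 higher, 8 lower) without the second. The shares of all genes called higher and lower were 33.5% and 32.4% in the former fit and 29.7% and 28.1% in the latter. The mediator subunit gene MED1, which nuclear receptors recruit, rose from between 71.5 and 80.0 in NC to between 126 and 131 in siRNA libraries (log2 change 0.76). The GATA cofactor gene ZFPM1 rose from between 1.29 and 2.07 to between 3.83 and 5.95 (1.03), and CITED2, a cofactor of HNF4A, rose from between 37.7 and 73.5 to between 105 and 119 (a change of 1.01). These 3 genes had limma adjusted p from 0.000151 to 0.00621. PPARGC1B, a coactivator of nuclear receptors, rose (1.37, limma adjusted p = 0.0223), and COP1, a ubiquitin ligase that degrades C/EBPalpha together with Tribbles proteins, fell (-0.37, limma adjusted p = 0.0197). Both calls were lost without single libraries. For PPARGC1B these were NC replicate 1 and siRNA replicates 1, 2 and 3 (limma adjusted p = 0.0509 to 0.0646). PPARGC1B also lost its call without the first NC pair (0.81, limma adjusted p = 0.102). COP1 lost its call when siRNA replicate 1 or 2 was dropped (limma adjusted p = 0.0575 and 0.0635). The calls of NCOR1 (0.26), HDAC3 (-0.47) and TLE4 (-0.62) were lost too with some single libraries left out, at limma adjusted p up to 0.0833, 0.0871 and 0.097. Every call of a lower gene in this list was thus lost in some such fit.

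Genes of the hepatocyte programme that these factors serve did not move as a block. Of 49 secreted products, 21 were tested, 6 rose and 9 fell, where 21.7% and 20.8% of all genes tested did. The median log2 change of these products was -0.33. ALB rose from 8.92, 9.44, 7.80 and 10.6 across NC replicates 1 to 4 to 27.1, 26.8, 38.9 and 35.4 across siRNA replicates 1 to 4 (log2 change 1.69, SE 0.16, limma adjusted p = 9.57e-05). SERPINA6, the cortisol carrier, rose from between 0 and 0.345 to between 3.49 and 5.10 (2.27, SE 0.16, limma adjusted p = 3e-05), and RBP4 and SERPINA1 rose by 4.36 and 2.52 on the log2 scale. The fibrinogen genes FGA and FGB fell, both with a log2 change of -3.84, in the same libraries in which ALB rose. The median of the secreted products was -0.99 (7 higher, 11 lower) without the first NC pair and -0.026 (7 higher, 9 lower) without the second. In those fits 33.5% and 32.4%, and 29.7% and 28.1%, of all genes were called higher and lower. RBP4, SERPINA1, FGA and FGB had limma adjusted p from 9.51e-07 to 6.52e-05. The higher call of APOC1 (0.67, limma adjusted p = 0.0342) was lost with some single libraries left out, at limma adjusted p up to 0.0965. It was also lost without the first NC pair (0.31, limma adjusted p = 0.0927).

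Of 48 genes of hepatocyte metabolism and transport, 22 were tested, 6 rose and 8 fell, against 21.7% and 20.8% of all genes tested. The median log2 change of the list was -0.33. BAAT, which conjugates bile acids, rose from 1.68, 0.888, 2.45 and 5.14 across NC replicates 1 to 4 to 39.2, 37.6, 64.5 and 66.2 across siRNA replicates 1 to 4 (log2 change 3.99, SE 0.36, limma adjusted p = 8.49e-05). The phospholipid exporter gene ABCB4 rose from between 0.282 and 0.492 to between 4.07 and 4.59 (1.98, limma adjusted p = 1.63e-05). CYP27A1, a bile acid synthesis enzyme, fell from between 73.6 and 85.0 in NC to between 32.7 and 37.3 in siRNA libraries (-1.19, limma adjusted p = 3.88e-05). The tryptophan and tyrosine catabolism genes TDO2 and HPD fell by 2.04 and 2.81 on the log2 scale, and MTTP, which loads lipid onto apolipoprotein B, fell by 1.99 (limma adjusted p = 3.74e-05 to 0.000202). The lower call of HNMT (-1.01, limma adjusted p = 0.033) was lost with some single libraries left out, at limma adjusted p up to 0.0877. It was also lost without the second NC pair (-0.42, limma adjusted p = 0.107). The median of this list was -0.55 (7 higher, 12 lower) without the first NC pair and -0.037 (8 higher, 9 lower) without the second. In those fits 33.5% and 32.4%, and 29.7% and 28.1%, of all genes were called higher and lower.

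Markers of immature and other lineages were mixed as well. Beside each list here, 21.7% of all genes tested rose and 20.8% fell. Of 12 fetal, progenitor and biliary markers tested, 3 rose and 3 fell, with a median log2 change of 0.16. CD24, a surface protein of progenitor cells, rose from between 0.861 and 8.47 in NC to between 50.3 and 59.5 in siRNA libraries (log2 change 3.69, limma adjusted p = 0.000748), and SPP1, which encodes osteopontin, fell from between 459 and 673 to between 333 and 393 (-0.71, limma adjusted p = 0.00305). AFP, the fetal albumin homologue, was at 2.89 to 4.92 in NC and 1.01 to 2.80 in siRNA libraries (-0.78, limma adjusted p = 0.0209), a call lost without siRNA replicate 1, 3 or 4 (limma adjusted p = 0.0517 to 0.0538) and without the second NC pair (-0.55, limma adjusted p = 0.0772). The calls of IGF2BP1 (0.34), CDH6 (1.26) and SOX4 (-0.48) were each lost with some single libraries left out, at limma adjusted p up to 0.0586, 0.084 and 0.0981. CDH6 and SOX4 also lost theirs without the first NC pair (0.54 and -0.21, limma adjusted p = 0.0832 and 0.0586). The fetal list held 4 higher and 3 lower without the first NC pair and 5 higher and 2 lower without the second. In those fits 33.5% and 32.4%, and 29.7% and 28.1%, of all genes were called higher and lower. Of 10 gut, pancreas and lung markers tested, 4 rose and 1 fell, with a median of 0.37. The gut mucin gene MUC13 rose from between 6.46 and 14.5 to between 56.6 and 62.9 (2.43, limma adjusted p = 0.000136), KRT20 from between 1028 and 1239 to between 1910 and 2104 (0.85, limma adjusted p = 0.000178), and the microvillus gene VIL1 fell from between 61.7 and 169 to between 15.0 and 36.2 (-2.05, limma adjusted p = 0.00186). Of 3 fibroblast, endothelial and immune markers tested, 0 rose and 1 fell past the limma threshold, PECAM1 (-1.43, limma adjusted p = 0.00248), while LUM (-0.78, limma adjusted p = 0.0707) and CD68 (0.47, limma adjusted p = 0.154) did not pass.

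**Figure D5:**
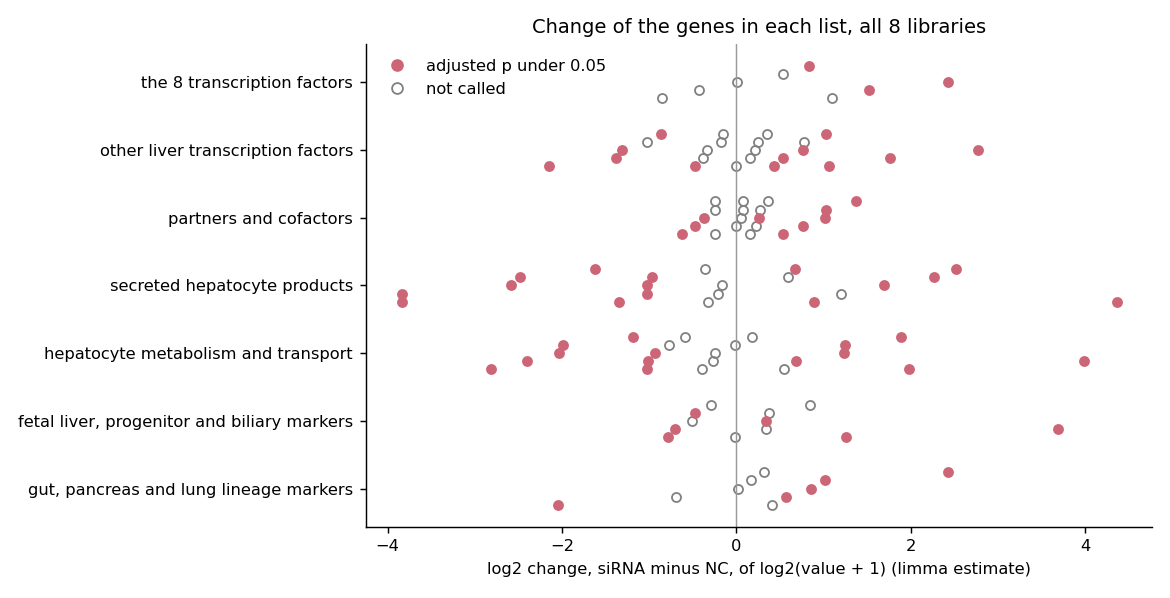
Log2 change (siRNA minus NC, log2(value + 1) scale, limma estimate with all 8 libraries) of every tested gene in each list, 1 point per gene. Points past an adjusted p of 0.05 are filled, and each of the 6 other lists shown holds them on both sides of 0.

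The chromosomal neighbours of the 8 genes were examined to see whether whole segments moved with them. Of 49 tested genes that start within 500 kb, 6 rose and 12 fell, where 21.7% and 20.8% of all genes tested did (42.5% together). FOXA3 had 23 such neighbours, of which 1 rose and 5 fell with a median log2 change of -0.20. The nearest, SYMPK, 0.699 kb away, was at 79.3 to 117 in NC and 92.3 to 98.4 in siRNA libraries (log2 change 0.006, limma estimate). HNF4A had 7 neighbours, of which 1 rose and 2 fell, with a median of -0.024. Its nearest, FITM2, was at 14.5 to 18.8 and 18.2 to 19.5 (0.20). CEBPA had 8 neighbours, with 2 higher, 2 lower and a median of -0.15, and CEBPG, 70.8 kb away, split with the NC pairs at 324, 337, 74.3 and 67.5 across NC replicates 1 to 4 and 189 to 202 in siRNA libraries. For the other genes the neighbour medians were 0.32 over 3 genes for ONECUT2, 0.25 over 2 for GATA6, -0.044 over 3 for FOXA1 and -1.95 over 2 for FOXA2, 1 of which is AL121722.1. The nearest to FOXA1, TTC6, was at 1.89 to 3.25 in NC and 0.57 to 1.42 in siRNA libraries (-0.83, limma adjusted p = 0.00788). TTC6 lies on the opposite strand and shares 16 exon bases with FOXA1, so their values may include reads of one another. PROX1 had 1 neighbour within 500 kb, at 0.16. The neighbour calls of MIB1, OSER1, NARS and PKIG were each lost with some single library left out. The called neighbours of FOXA3 were not checked in this way.

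Some other genes followed the 8 closely across libraries, by Pearson's r of log2(value + 1) over 8 libraries that share a cell line and fall into clusters. For FOXA3 these were CTNS, MOB3C and TOPORS, with r of 0.996 to 0.998. For HNF4A they were PHF20, RHOD and ZNF292, all at 0.988, and for ONECUT2 LRPPRC, UGT1A1 and ZNF724, at 0.993 to 0.998. CEBPA was matched by NCLN, TTC1 and BLM, at 0.993 to 0.995, and GATA6 by TOB2, S100P and MYC, at 0.997. MYC stood at 497, 548, 133 and 151 across NC replicates 1 to 4 and at 606 to 659 in siRNA libraries, and it had the same order as GATA6 among the NC libraries. FOXA1 was matched by DFFA, NMRAL1 and DIS3L, at 0.973 to 0.984, PROX1 by WDTC1, PRDM11 and ZNF134, at 0.955 to 0.966, and FOXA2, the least closely matched, by PHF11, ZNF398 and FJX1, at 0.919 to 0.942. The value of UGT1A1 is uncertain, since it shares exons with its gene family.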

How the data were processed

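The table deposited by the authors gives, for each gene symbol and library, a scaled signal, reads divided by a library-wide factor, with column totals of 912904 to 1082965. Every value was a whole multiple of the value of 1 read, with 100% whole within 0.02 reads, so reads were recovered for count tests, of which edgeR called 5002 genes. The processing notes of the submitters name HISAT2, HTSeq 0.12.4, Trimmomatic, FastQC, edgeR, DESeq2 and hg38, with roles, settings and use of strand not given in the sources used here. All 11818 genes were above 1 in at least 3 libraries, so low genes had been removed.

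In R 4.3.3, limma 3.58.1 with trended, robust variances compared the groups on log2(value + 1). It covered 11812 genes reaching 1 in 4 or more libraries, used no covariate, and adjusted p over all of them by Benjamini-Hochberg. The log2 scale with a pseudocount understates changes of low genes. Fits with libraries left out kept the same 11812 genes, a choice made after first results were seen. edgeR 4.0.16 and DESeq2 1.42.0 on recovered reads were alternatives. Separate cultures are not stated, so p-values measure the spread between libraries, which may be technical. Ratios used exact permutation tests (scipy 1.17.1). Positions and exon lengths came from GENCODE v29 (GRCh38), matched by symbol for 11806 genes, and start sequences from RefSeq (GRCh38.p14). Printed intervals come from the limma fit and so from the spread between libraries, and the floor covers counting error only. The genes and lists were chosen with earlier results of these data known. By rule, up to 6 genes with the smallest p of each list, the 8 genes themselves, their 3 most similar genes, up to 2 nearest neighbours of each, PTK2, and ALB, AFP, NR1H4, CEBPB, GATA4, HNF4G and ONECUT1 are named. AL121722.1 and CEBPG are such neighbours. Some genes named by this rule are left out, the marker genes were listed by name, and LUM was chosen after its values were seen. Further genes are named because their calls were lost with libraries left out.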

Additional observations from a re-analysis of the deposited data

Results flagged for a closer look

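The log2 ratio of CEBPA to CEBPB was -0.85 in siRNA replicate 1, away from the other 3 siRNA libraries at -0.31 to -0.21, a gap of 0.856 of the group's range which is above Dixon's 95% limit for 4 libraries. It was the only one of 22 groups of 4 libraries checked to pass that limit, and chance gives about 1 in 20.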

How the results depend on the processing

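The increases of FOXA3, ONECUT2 and HNF4A passed under every alternative run, with log2 changes of 1.79 to 2.66, 1.06 to 1.88 and 0.75 to 0.91. Leaving out each library in turn gave 3853 to 5535 genes past the threshold (1968 to 2808 higher, 1885 to 2727 lower), and 3 to 6 of the 8 transcription factor genes (3 to 5 higher, 0 to 1 lower). For the ratios of CEBPA to CEBPB, GATA6 to GATA4 and HNF4A to HNF4G the same step gave -1.80 to -0.44, 0.17 to 0.90 and 0.50 to 0.86. Without NC replicates 1 and 2, chosen after seeing the data, 7782 genes passed (3953 higher, 3829 lower), with 7 of the 8 (5 higher, 2 lower). Without NC replicates 3 and 4, likewise, the ratios were 0.77 for CEBPA to CEBPB and -0.42 for GATA6 to GATA4, FOXA1 was at 0.18 and FOXA2 at -0.25. At an adjusted p under 0.01, 3034 genes passed (1570 higher, 1464 lower). CEBPA was the 1 gene called lower by edgeR, by edgeR with DESeq2 size factors and by DESeq2. FOXA2 changed sign at -0.0038 with DESeq2 size factors in edgeR and in DESeq2, at -0.025 with equal library totals, at -0.091 without NC replicate 3, at -0.057 without NC replicate 4 and at -0.11 without siRNA replicate 1, within a range of -0.11 to 0.11 over single libraries left out. The cause was not tested. The replicate numbers are tied to no shared day, and deviations of same-numbered libraries correlated at -0.0682, 0.146, -0.0656 and 0.161, so they do not pair the samples. With a replicate block 4546 genes passed (2294 higher, 2252 lower), and 4 of the 8 genes passed as higher, GATA6 among them at 1.10 (limma adjusted p = 0.0428). The paired exact p of the 3 ratios was 0.375, 0.5 and 0.125, where 0.125 is the smallest p that 4 pairs allow, so none could pass. The 8 genes had at least 103 reads in every library, and the part of depth was not tested.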
